A study of Homo sapiens with 6 samples.

Results

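Glucose uptake, glycolysis and the low-oxygen response were followed in MCF10A cells through 10 listed genes: SLC2A1, SLC2A3, HK2, PGK1, LDHA, PDK1, CA9, VEGFA, ADM and NDRG1. The list was made by symbol, and 9 of the 10 genes had at least 1 probe set naming no other gene. They were read with 24 probe sets and set against all 19775 genes of the table. CA9, a membrane carbonic anhydrase, was not analysed here. MCF10A is an established, immortalised but non-tumorigenic human breast epithelial line.

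Cells were seeded at 50K, 100K, 200K, 400K, 600K or 800K per 35 mm dish, and total RNA was taken 24 h later. All dishes shared the line and its medium, which held 5% horse serum, 20 ng/ml EGF, 0.5 µg/ml hydrocortisone, 100 ng/ml cholera toxin, 10 µg/ml insulin and 100 µg/ml gentamicin. EGF and insulin act on glucose metabolism themselves and were present at every density. There was 1 Affymetrix HG-U133 Plus 2 array per density and hence no replicate. The labels give no measurement of oxygen, glucose or lactate in the dishes.

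Cells take up glucose through facilitative transporters, phosphorylate it with hexokinase, and break it down to pyruvate, which is either oxidised in mitochondria or reduced to lactate. When oxygen is low, the alpha subunits of hypoxia-inducible factor (HIF) escape prolyl hydroxylation and degradation, pair with ARNT, and raise transcription of transporters, glycolytic enzymes, PDK1, VEGFA, ADM, CA9 and NDRG1. HIF binds a short core, ACGTG or GCGTG, in promoters and enhancers. Several of these genes also answer to growth factors, differentiation and stress without any fall in oxygen.

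Promoter windows of 6 of the 9 genes were searched for these cores. Each window ran from 250 bases before to 50 bases after an annotated transcription start (RefSeq, GRCh38.p14), and both strands were read. All 6 genes (SLC2A1, HK2, PGK1, LDHA, PDK1 and ADM) had a core in at least 1 window, and 8 of their 9 windows held one. Of all 35116 RefSeq windows, 48.4% held either core, 21.4% ACGTG and 36.5% GCGTG. The palindrome CACGTG, an E-box that contains ACGTG on both strands, was in 2 of the 9 windows and in 7.26% of all windows. The windows of SLC2A3, VEGFA and NDRG1 were not used here. The 250 bases before the start are shown for ADM, which fell with density, and for PGK1 and LDHA, which barely moved. All are on the plus strand, at chr11:10304823-10305072 for ADM, chrX:78103998-78104247 for PGK1 and chr11:18394313-18394562 for the first window of LDHA. Capitals mark the cores on either strand, so that a core on the minus strand reads CACGT or CACGC.
ADM: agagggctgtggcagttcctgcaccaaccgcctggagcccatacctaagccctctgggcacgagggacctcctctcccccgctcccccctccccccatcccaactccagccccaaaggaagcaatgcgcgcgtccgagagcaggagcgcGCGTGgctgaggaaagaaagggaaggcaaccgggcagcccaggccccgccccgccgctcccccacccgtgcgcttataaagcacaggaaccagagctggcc
PGK1: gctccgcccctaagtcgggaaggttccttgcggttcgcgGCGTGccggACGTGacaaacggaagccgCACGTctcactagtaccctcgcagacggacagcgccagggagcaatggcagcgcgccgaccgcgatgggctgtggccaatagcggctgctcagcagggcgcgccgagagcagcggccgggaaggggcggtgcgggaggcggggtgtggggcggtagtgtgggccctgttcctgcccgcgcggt
LDHA: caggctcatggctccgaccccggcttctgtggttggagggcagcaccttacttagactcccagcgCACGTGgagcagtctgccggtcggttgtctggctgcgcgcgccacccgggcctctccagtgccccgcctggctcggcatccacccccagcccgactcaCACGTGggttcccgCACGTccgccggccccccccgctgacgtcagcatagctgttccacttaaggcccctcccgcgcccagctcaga
ADM had 1 core, PGK1 3 and LDHA 5 in the stretch shown, where each CACGTG of LDHA counts once per strand. A match is a description of these letters and shows no binding.

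Every value is a ratio to the 50K array, which gives changes and no level, so neither the abundance of a gene nor the presence of a cell type marker could be read. Changes are given on the log2 scale. A gene was the mean of its probe sets, and its trend was the slope of the log2 ratio per doubling of the cells plated, fitted with limma across all 19775 genes with Benjamini-Hochberg adjustment and a threshold of 0.05. Errors after ± are standard errors of that fit over 6 arrays. With 1 array a density, these errors mix variation between dishes, technical noise and departure from a line. RNA came from whole dishes, so a change in every cell and a change in the share of cells that carry the RNA cannot be told apart.

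The 50K array stood apart in its control probe sets. On the other 5 arrays the 3 probe sets for 18S rRNA had medians of -0.65 to -0.53 relative to 50K, and the 24 poly-A spike probe sets had medians of -0.45 to -0.23. Hybridisation controls lay between -0.02 and 0.10, and the median of all non-control probe sets between 0.02 and 0.05. The difference of the 3′ from the 5′ probe set of actin, a sign of RNA integrity, was -0.02, 0.04, 0.17, 0.22 and 0.30 at 100K, 200K, 400K, 600K and 800K, whereas that of GAPDH stayed between -0.05 and 0.07. The part of these shifts in the results was not tested. Values without the 50K array are given where leaving it out changed the call of a named gene, and for some other results. Every fold relative to 50K rests on that array.

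Of the 9 genes, SLC2A3 rose and ADM fell with density, and the other 7 did not pass the test. The count of 2 in 9 stands beside 21.3% of all genes called, 8.93% rising and 12.4% falling. The median slope of the 9 genes was 0.03, against 0.00 for all genes. Slopes spread from -0.53 for ADM to 0.57 for NDRG1, whereas the 5th to 95th percentile of all genes ran from -0.19 to 0.16. NDRG1, ADM and SLC2A3 ranked 128, 153 and 276 by absolute slope among the 19775 genes, and LDHA 18161. The same 3 genes were the ones that differed by 2-fold or more between 800K and 50K, a change that 4.94% of all genes showed and that has no test. The plot of log2 ratios by density shows courses in both directions and several near 0.

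**Figure D1:**
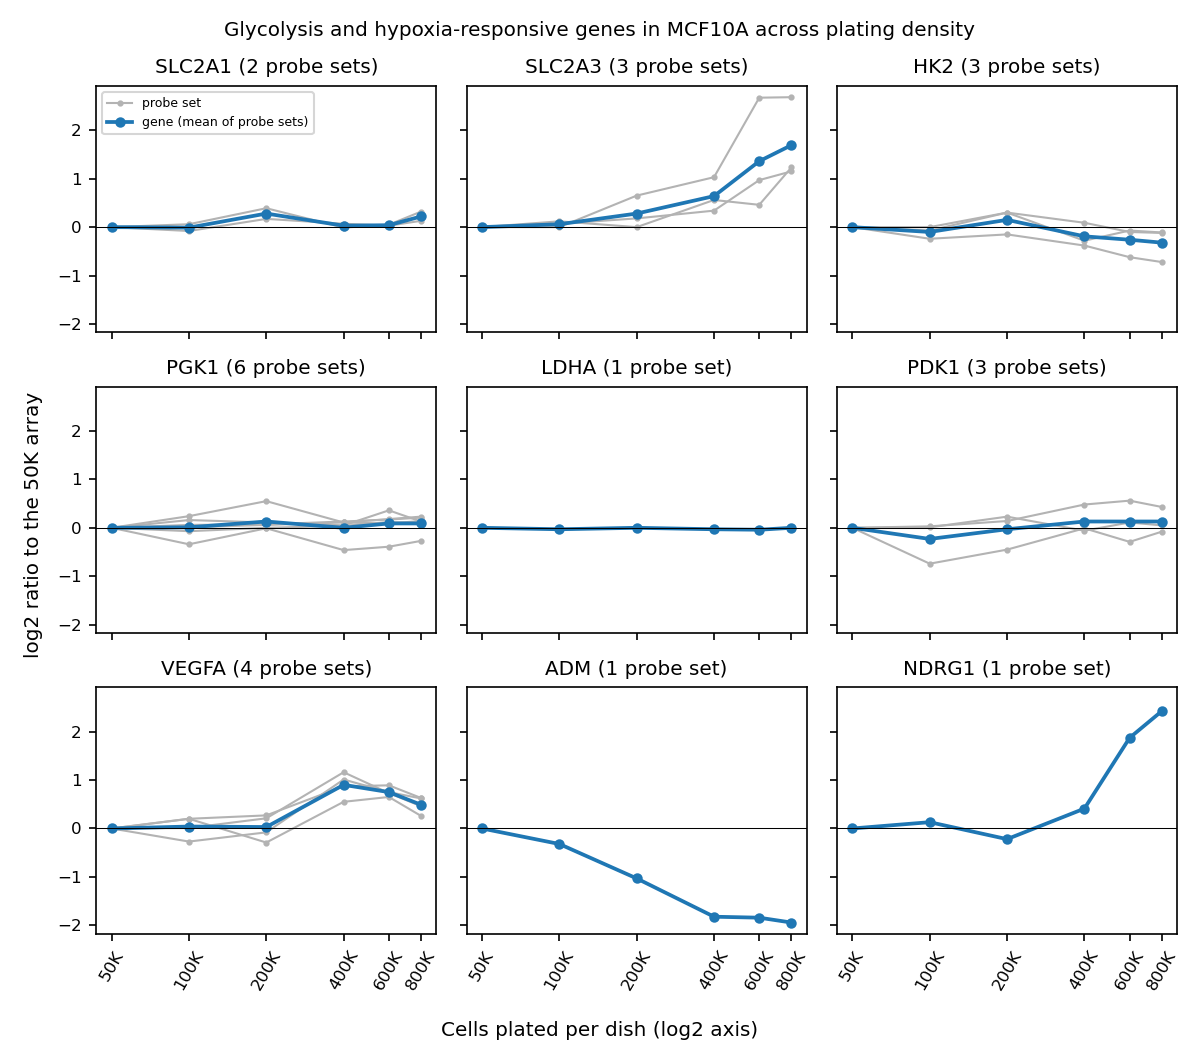
Log2 ratio to the 50K array (vertical axis) against the cells plated per dish (horizontal axis, log2 scale) for the 9 genes, 1 array per density. Grey lines are single probe sets and the blue line is their mean. SLC2A3 and NDRG1 reach 1.69 and 2.42 at 800K, ADM reaches -1.94, VEGFA is highest at 400K with 0.90, and LDHA stays within 0.05 of log2 range.

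The 2 facilitative glucose transporters gave different pictures. SLC2A1 encodes GLUT1, the transporter of basal glucose uptake in most cells. Its log2 ratios were 0, -0.01, 0.28, 0.03, 0.04 and 0.22 from 50K to 800K, with the 200K and 800K arrays above the other 4. The slope was 0.03 ± 0.03 (adjusted p = 0.585, limma), and the 95% interval of the fitted ratio of 800K to 50K ran from 0.884 to 1.36.

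SLC2A3 encodes GLUT3, a transporter of high glucose affinity best known from neurons. Its log2 ratios were 0, 0.06, 0.28, 0.64, 1.36 and 1.69 from 50K to 800K. In this mean of 3 probe sets, each density was higher than the one before. At 800K its signal was 3.22-fold that at 50K. The slope was 0.42 ± 0.07 (95% interval 0.24 to 0.60; adjusted p = 0.0127, limma). Without the 50K array it was 0.54 (adjusted p = 0.0201). The call was lost without the 100K array (adjusted p = 0.0505) and in a comparison of the 3 highest with the 3 lowest densities (adjusted p = 0.0505). The steepest step was from 400K to 600K, at 0.72, and 0.784% of all genes had a step of that size or more in either direction there. The slope of SLC2A3 exceeded that of SLC2A1 by 0.38, given as a description because this pair was chosen after its values were seen.

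The 3 SLC2A3 probe sets shared the sign of the slope but not its size. At 800K they stood at 6.41-fold (202499_s_at), 2.34-fold (202497_x_at) and 2.21-fold (202498_s_at) their 50K signal. Their slopes were 0.72, 0.25 and 0.28, with adjusted p-values of 0.0204, 0.0807 and 0.031 over all 41091 probe sets (limma), so that the second was not called. From 400K to 600K, 202499_s_at gained 1.64 and 202498_s_at 0.63, whereas 202497_x_at changed by -0.10. All 3 carry suffixes that mark possible cross-hybridisation, and SLC2A3 has a near-identical copy, SLC2A14. Probe sets listed for both genes were left out.

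None of the 3 listed glycolytic enzymes passed the trend test. HK2, the inducible hexokinase that traps glucose in the cell, had log2 ratios of 0, -0.10, 0.15, -0.19, -0.26 and -0.32 from 50K to 800K. In this mean of 3 probe sets, the 3 densest dishes were below the 3 sparsest, with 200K the highest of all. The slope of -0.08 ± 0.03 did not pass (adjusted p = 0.185, limma; fitted ratio of 800K to 50K 0.636 to 1.02), except without the 200K array (-0.07, adjusted p = 0.0261). Among its 3 probe sets, 202934_at fell to 0.608 of its 50K signal at 800K (slope -0.17 ± 0.03, adjusted p = 0.0195), whereas the other 2 stood at 0.921 and 0.924 and were not called. Only 202934_at had its 3 densest dishes below its 3 sparsest. At 200K it was at -0.15, and the other 2 were at 0.30 each.

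PGK1, the phosphoglycerate kinase that makes ATP in glycolysis, had log2 ratios between 0.00 and 0.13 on all arrays, as the mean of 6 probe sets. Its slope was 0.02 ± 0.02 (adjusted p = 0.578, limma), with a fitted ratio of 800K to 50K of 0.937 to 1.18. Of its 6 probe sets, 200738_s_at rose (slope 0.05 ± 0.01, adjusted p = 0.0446), to 1.16-fold at 800K, and 217383_at had a slope of the other sign (-0.07) that was not called. Single probe sets moved further than the mean, with 1558365_at at 0.55 at 200K and 217383_at at -0.46 at 400K.

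LDHA, the lactate dehydrogenase subunit that reduces pyruvate to lactate, was the flattest of the 9 genes. Its log2 ratios were 0, -0.03, 0.00, -0.03, -0.04 and 0.00 from 50K to 800K, from a single probe set. The slope was 0.00 ± 0.01 (adjusted p = 0.921, limma), and the 95% interval of the fitted ratio of 800K to 50K was 0.913 to 1.08. PGK1, as a mean of its probe sets, and LDHA thus stayed within narrow intervals over a 16-fold range of cells plated.

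PDK1, a mitochondrial kinase that switches off pyruvate dehydrogenase and so diverts pyruvate from oxidation, had log2 ratios of 0, -0.23, -0.03, 0.13, 0.13 and 0.13 from 50K to 800K. In this mean of 3 probe sets, the 3 densest dishes were level with each other and above the 3 sparsest. The slope of 0.07 ± 0.03 did not pass (adjusted p = 0.175, limma). Without the 50K array it was 0.13 and passed (adjusted p = 0.036), and by the median of the probe sets it was 0.01 (adjusted p = 0.724). One probe set, 226452_at, rose to 1.34-fold at 800K (slope 0.15 ± 0.03, adjusted p = 0.0223), and the other 2 were not called. It alone had its 3 densest dishes above its 3 sparsest. The low value at 100K came from 239798_at, at -0.74 there, against 0.01 for 206686_at and 0.03 for 226452_at.

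Over the 24 probe sets, 5 were called rising and 2 falling, beside 17.2% of all 41091 probe sets called in either direction. The 5 belonged to SLC2A3, PGK1, PDK1 and VEGFA, and the 2 to HK2 and ADM.

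**Figure D2:**
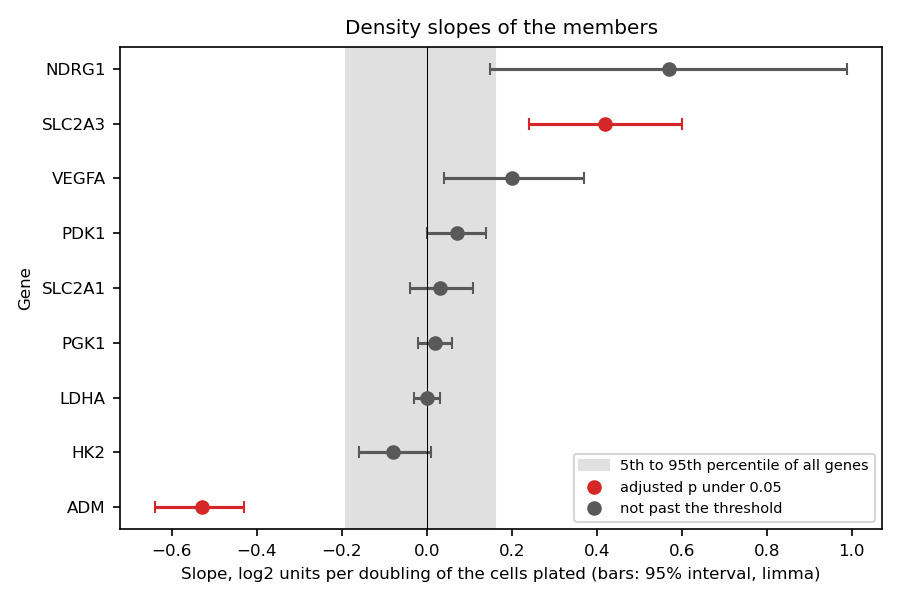
Slope of the log2 ratio per doubling of the cells plated (horizontal axis) for the 9 genes, with 95% intervals from limma over 6 arrays. Red points passed an adjusted p of 0.05, dark grey points did not, and the grey band spans the 5th to 95th percentile of all genes (-0.19 to 0.16). ADM and SLC2A3 lie outside the band and passed, NDRG1 has the steepest slope and the widest interval, and LDHA the narrowest.

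The secreted factors moved apart. ADM encodes adrenomedullin, a vasodilator peptide that acts on endothelial cells through the calcitonin receptor-like receptor. Its log2 ratios were 0, -0.32, -1.03, -1.82, -1.84 and -1.94 from 50K to 800K. It was below 50K on all 5 other arrays, and at 800K its signal was 3.83-fold lower than at 50K. The slope was -0.53 ± 0.04 (95% interval -0.64 to -0.43; adjusted p = 0.00149, limma), and it was -0.56 without the 50K array (adjusted p = 0.0116). The fall took place between 50K and 400K, with steps of -0.32, -0.71 and -0.79, and the steps above 400K were -0.02 and -0.10. A fall that reaches the background of the array is understated, and whether ADM did so cannot be read from ratios.

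VEGFA, the main angiogenic growth factor of the HIF response, had log2 ratios of 0, 0.04, 0.03, 0.90, 0.75 and 0.49 from 50K to 800K. In this mean of 4 probe sets the 3 sparsest dishes were level, and the 3 densest stood above them with the highest value at 400K. Single probe sets lay between -0.27 and 0.20 at 100K and between -0.29 and 0.27 at 200K. Between 200K and 400K VEGFA gained 0.87, or 1.83-fold, a step matched or exceeded by 0.536% of all genes. The slope of 0.20 ± 0.07 did not pass (adjusted p = 0.0831, limma; fitted ratio of 800K to 50K 1.12 to 2.75). The mean of the 3 highest minus the 3 lowest densities was 0.69 and passed (adjusted p = 0.0292). All 4 probe sets were highest at 400K or 600K, and 212171_x_at rose with density (slope 0.21, adjusted p = 0.0329). The slopes of VEGFA and ADM differed by 0.74, given as a description because this pair, too, was chosen after its values were seen.

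NDRG1, a cytoplasmic protein induced by low oxygen and during epithelial differentiation, had the largest range of the 9 genes. Its log2 ratios were 0, 0.13, -0.22, 0.41, 1.87 and 2.42 from 50K to 800K, from a single probe set. The first 4 arrays lay between -0.22 and 0.41, and the 600K and 800K arrays stood well above them, at 3.66-fold and 5.34-fold the 50K signal. The step from 400K to 600K was 1.46, or 2.75-fold. NDRG1 was the 1 gene of the 9 with a 2-fold step there, beside 0.182% of all genes, and 0.0152% had a step as large. The slope was 0.57 ± 0.17 (95% interval 0.15 to 0.99) and did not pass (adjusted p = 0.0673, limma). On the scale of the cells plated, untransformed, it gained 0.35 per 100K cells and passed (adjusted p = 0.00562).

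**Figure D3:**
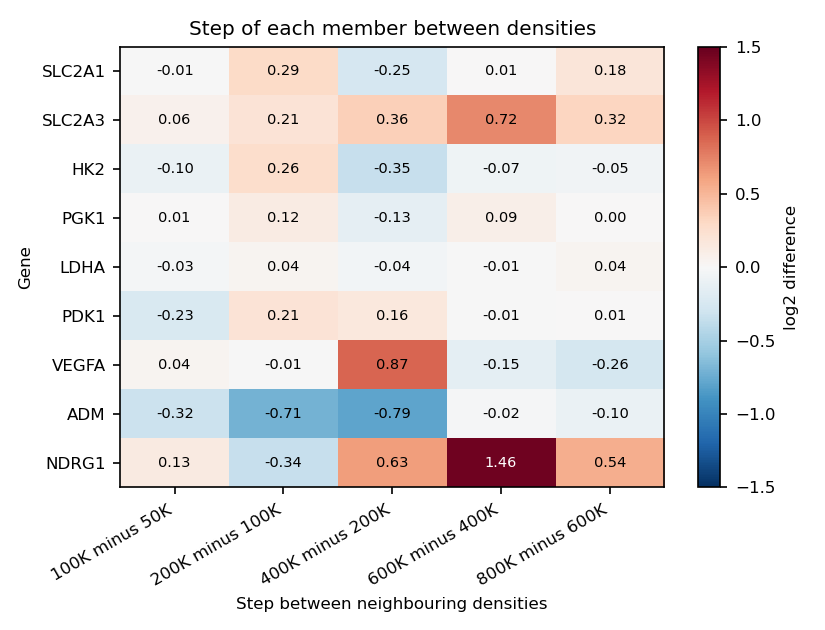
Difference in log2 ratio between each density and the next lower one (columns) for the 9 genes (rows), with the value in each cell. Red is a gain and blue a loss, and there is 1 array per density and no test. ADM lost -0.71 and -0.79 before 400K and then stayed level, VEGFA gained 0.87 at 400K, and SLC2A3 and NDRG1 gained 0.72 and 1.46 at 600K.

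Curvature was tested with a quadratic term. None of the 9 genes passed, beside 0.0% of all 19775 genes, in a fit with 3 residual degrees of freedom (limma). At an unadjusted p under 0.05 there were 2496 genes, and 2 of the 9. These were SLC2A3 with a quadratic term of 0.58 ± 0.10 (adjusted p = 0.155) and NDRG1 with 1.30 ± 0.29 (adjusted p = 0.197), both positive, which means that the gain was steeper among the dense dishes.

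The genes whose course lay nearest to that of NDRG1 were SPRR1A, a precursor of the cornified envelope, TMEM45A and SLITRK6. Their root-mean-square distances over the 5 log2 ratios to 50K were 0.20, 0.26 and 0.31. SPRR1A stood at 0.63, 1.56 and 2.33 at 400K, 600K and 800K. Nearest to ADM were SPOCK1, a secreted proteoglycan, FN1, which encodes fibronectin, and STEAP1, a membrane protein, at distances of 0.16, 0.17 and 0.20. FN1 reached -1.55, -1.87 and -1.94 at 400K, 600K and 800K as the mean of its probe sets. Its slope of -0.49 was -0.70 by their median and -0.08 without those marked for cross-hybridisation, so its course depends on which probe sets are averaged. The slope of SPRR1A was 0.56 with all its probe sets and 0.39 without those so marked. These distances are a description over 5 arrays that share 1 divisor.

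The related genes showed what lay around the 9. Counts called in each list stand beside 8.93% of all genes rising and 12.4% falling. Of 17 further genes of glycolysis, 2 rose, 1 fell and 14 did not pass, with a median slope of -0.01. ALDOC, an aldolase, rose to 2.14-fold at 800K relative to 50K (slope 0.27 ± 0.04, adjusted p = 0.00565, limma). GPI, which converts glucose-phosphate to fructose-phosphate, rose to 1.36-fold (0.10 ± 0.02, adjusted p = 0.0106, and 0.0578 without the 50K array). PFKFB3, which makes the activator of phosphofructokinase, fell 2.51-fold (-0.33 ± 0.04, adjusted p = 0.00505). SLC16A1 and SLC16A3, lactate carriers, were not analysed here.

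The oxygen-sensing machinery itself changed little. Of 13 HIF subunits, prolyl hydroxylases and partners, 0 rose and 1 fell, beside 8.93% of all genes rising and 12.4% falling. That gene was EPAS1, a HIF alpha subunit (slope -0.08 ± 0.02, adjusted p = 0.0215, limma; 0.106 without the 50K array), and its call was also lost without the 100K or the 600K array. ARNT2, a partner subunit, had a slope of -0.07 (adjusted p = 0.278). HIF activity is set mainly by protein stability, which these arrays did not measure.

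Other genes known to be induced by low oxygen went both ways. Of 22 analysed, 6 rose, 4 fell and 12 did not pass, beside 8.93% of all genes rising and 12.4% falling. Without the 50K array 2 rose and 2 fell, and the calls over all genes went from 4220 to 2989. BHLHE40, a transcriptional repressor, rose (slope 0.40 ± 0.04, adjusted p = 0.00215, limma), as did MXI1, an antagonist of MYC (0.31 ± 0.04, adjusted p = 0.00403). ANGPTL4, an inhibitor of lipoprotein lipase, fell 5.74-fold at 800K relative to 50K (-0.65 ± 0.10, adjusted p = 0.00759, and 0.0625 without the 50K array). PLOD2, a collagen lysyl hydroxylase, fell 2.46-fold (-0.33 ± 0.02, adjusted p = 0.000527).

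Of 12 genes of pyruvate entry into mitochondria and pyruvate use there, 4 rose and 0 fell. Of all genes, 8.93% rose and 12.4% fell. Without the 50K or the 600K array, 2 of the 12 rose. The pyruvate carriers MPC1 and MPC2 were not called (slopes 0.02 and 0.03, adjusted p = 0.535 and 0.289, limma). PC, the pyruvate carboxylase that feeds oxaloacetate, rose to 5.12-fold at 800K relative to 50K (slope 0.55 ± 0.06, adjusted p = 0.00295, limma). PDK4, a kinase with the same target as PDK1, rose to 1.67-fold (0.17 ± 0.03, adjusted p = 0.0151). By the median of its probe sets in place of the mean, the PDK4 slope was 0.05 (adjusted p = 0.0472), and its call was lost without the 600K array (adjusted p = 0.0541) and between the 3 highest and the 3 lowest densities (adjusted p = 0.0505). PDP1, the opposing phosphatase, rose to 1.48-fold (0.16 ± 0.04, adjusted p = 0.0308) and PDHX, a subunit of the dehydrogenase complex, to 1.20-fold (0.08 ± 0.02, adjusted p = 0.0171). Without the 50K array PDP1 and PDHX had adjusted p-values of 0.141 and 0.0741.

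Of 9 further genes of glucose uptake, 2 rose and 1 fell, beside 8.93% of all genes rising and 12.4% falling. TXNIP, which restrains glucose uptake by removing transporters from the cell surface, rose to 3.98-fold at 800K relative to 50K (slope 0.58 ± 0.08, adjusted p = 0.00588, limma). It stood at 0.39 on the log2 scale at 200K and at 1.61 at 400K. The transporter SLC2A12 rose to 2.33-fold (0.28 ± 0.05, adjusted p = 0.0132), but its slope was 0.15 without the probe sets marked for cross-hybridisation (adjusted p = 0.212) and the call was also lost between the 3 highest and the 3 lowest densities (adjusted p = 0.081). The transporter SLC2A8 fell 1.45-fold (-0.13 ± 0.02, adjusted p = 0.00518).

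Among 11 partners of VEGFA and ADM, 2 rose and 2 fell, beside 8.93% of all genes rising and 12.4% falling. VEGFC, the lymphatic growth factor of the family, fell 5.98-fold at 800K relative to 50K (slope -0.67 ± 0.04, adjusted p = 0.000943, limma). The co-receptor NRP1 fell (-0.13 ± 0.03, adjusted p = 0.0197), and the receptor KDR and RAMP1, a partner of the calcitonin receptor-like receptor, rose (slopes 0.20 ± 0.05 and 0.10 ± 0.02, adjusted p = 0.0411 and 0.0326). Without the 50K array VEGFC fell and the other 3 were not called, and 0 partners rose without the 100K, the 200K or the 800K array either. Of 10 paralogs of the listed genes, 1 rose: CA2, a cytosolic carbonic anhydrase, to 5.90-fold (0.60 ± 0.03, adjusted p = 0.00068). NDRG3 had a slope of -0.05 (adjusted p = 0.185). Median slopes of all 7 lists lay between -0.01 and 0.05, against 0.00 for all genes. Calls near the threshold depended on the setting: of 13 alternatives each, KDR and PDP1 passed in 5 each, RAMP1 in 7, and NRP1 and EPAS1 in 8 each.

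**Figure D4:**
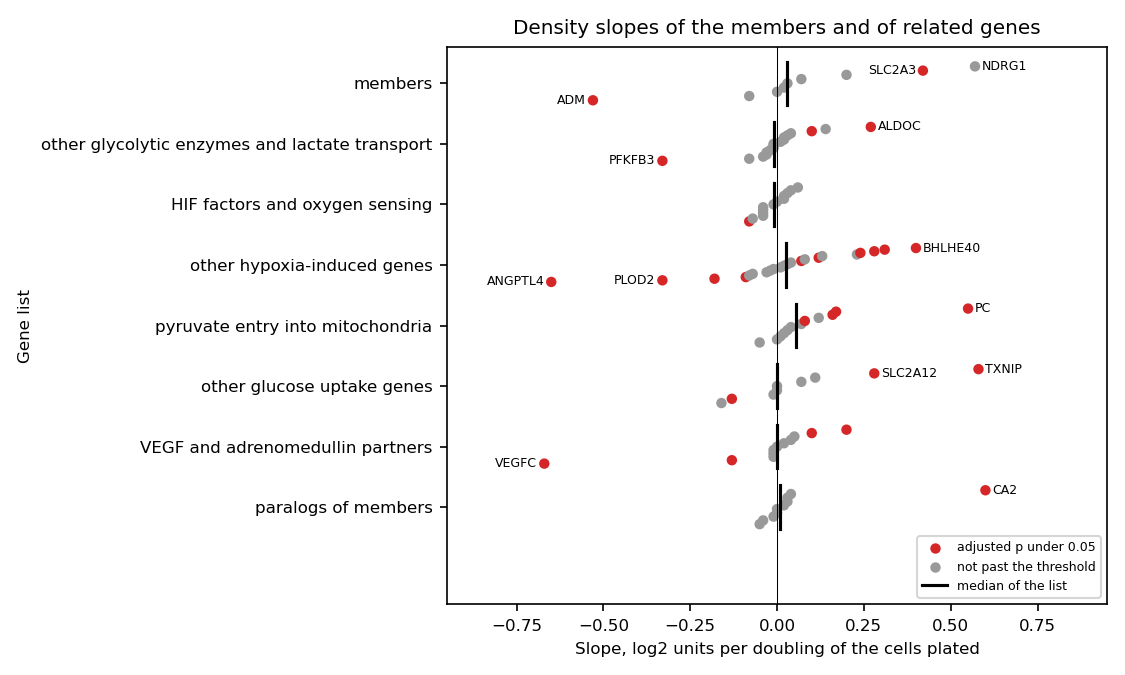
Slope of the log2 ratio per doubling of the cells plated (horizontal axis) for the 9 analysed genes (top row, members) and 7 lists of related genes (rows), 1 point per gene. Red points passed an adjusted p of 0.05 in limma, grey points did not, and black bars are list medians, between -0.01 and 0.05. Each list holds genes on both sides of 0, with VEGFC, ANGPTL4 and ADM far to the left and CA2, TXNIP and PC far to the right.

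Markers of the line and of other cell types were read in the same fit, for their changes alone. Of 7 epithelial markers, 4 rose and 0 fell, beside 8.93% of all genes rising and 12.4% falling. KRT14, a basal keratin, rose (slope 0.42 ± 0.02, adjusted p = 0.000407, limma). So did the cadherins CDH1 and CDH3 (0.21 ± 0.02 and 0.21 ± 0.01) and KRT5, another basal keratin (0.12 ± 0.02). ITGB4, EPCAM and KRT18 were not called, with slopes of 0.05, 0.12 and -0.10. Of 7 fibroblast markers DCN rose (0.08 ± 0.02, adjusted p = 0.0389), of 6 endothelial markers PECAM1 (0.12 ± 0.03, adjusted p = 0.0246), and of 5 adipocyte markers none. Among those not called, PDGFRB had a slope of -0.04, TEK 0.03, LYZ 0.05, LEP -0.08 and CIDEC -0.05. Of 4 leukocyte markers CD14 rose to 5.66-fold (0.74 ± 0.08, adjusted p = 0.00355), whereas PTPRC, which defines leukocytes, had a slope of 0.00. DCN and PECAM1 were not called without the 50K array (adjusted p = 0.228 and 0.0746), and passed in 4 and 7 of 13 alternatives. The part of these shifts in the results was not tested.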

How the data were processed

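RNA of MCF10A cells at 6 densities was labelled from 200 ng and hybridised to 1 array each, per the labels' protocols. RMA is named, with no version, in the submitters' processing notes. The authors deposited 54675 values per array on a linear scale, as a ratio to 50K: the column of that array holds 1 throughout (tolerance 1e-06), and elsewhere the ratio spans 0.0292 to 98.5. How the division and the scaling were done, and signal over background, are not stated in the sources used here.

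Log2 ratios were used with no filter or pseudocount. Leaving out 62 controls, 41091 probe sets had 1 symbol, 1801 several and 11777 none in the platform annotation; 41037 of the gene identifiers were found in RefSeq. limma 3.58.1 (R 4.3.3) fitted trend and curvature (4 and 3 residual degrees of freedom, two-sided, adjusted over 19775 genes), after the procedure was tested on simulated data. The number of arrays limits the precision. The genes and lists were chosen with earlier results of these data known. Named were all listed genes; per related list, up to 4 genes with the largest called slopes that kept their sign without each array (where under 2 passed, the 2 with the largest slopes); and the 3 nearest courses. Alternatives were leaving out probe sets with the suffixes _x_at and _s_at, median centring, other density scales, 3 highest against 3 lowest densities, robust variance, probe set medians and leaving out each array. The list counts without an array were added after the data were seen.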

Additional observations from a re-analysis of the deposited data

How the results depend on the processing

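With no replicates, leaving out an array removes a density. The 4220 genes with a trend became 2664 without the probe sets whose suffixes mark possible cross-hybridisation and 2259 in the comparison of the 3 highest with the 3 lowest densities, and ranged from 2388 to 3909 when single arrays were left out, lowest without 800K. The count of listed genes that rose, 1, became 0 without the suffixed probe sets, where 5 of the 9 had a value. SLC2A3, LDHA, VEGFA and NDRG1 had only suffixed probe sets, so this alternative could not be run for them. The count that rose was 2 on the scale of the cells plated and 2 by rank, where NDRG1 passed too. It was between 0 and 2 without single arrays, 0 without 100K and 2 without 50K. The count that fell was between 1 and 2, 2 without 200K. No gene passed the curvature test under any alternative run. Of 113 values of the 9 genes, 106 kept direction and side of the threshold, 2 lost the call (both SLC2A3), 5 gained it and 0 reversed. The slope of LDHA is 0.00 after rounding, so a change of sign could not be counted for its 12 values. ADM passed in all 13 alternatives, with adjusted p-values of 0.00183 to 0.0322; NDRG1 passed in 2 of 12 (0.00562 to 0.225) and VEGFA in 1 of 12. Of 511 values of the 40 other genes picked by the naming rule, 427 kept both, 81 lost the call, 2 gained it and 1 reversed. The reversed value was the slope of the adipocyte marker LEP, at 0.02 without the 50K array (adjusted p = 0.87, limma). That slope was as low as -0.11 without 800K, against -0.08 with all arrays. The cause of these changes was not tested. Arrays centred on their medians gave the same calls for the 9 genes.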

Other observations

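Some pairs of related hypoxia genes took different courses, and were picked after their values were seen. Log2 ratios below run from 100K to 800K, relative to 50K. BNIP3L, a mitophagy receptor, had 0.06, 0.15, 0.31, 0.86 and 1.26 and rose (slope 0.28 ± 0.07, adjusted p = 0.0303 in limma; 0.0509 without the 50K array). Its paralog BNIP3 had -0.01, -0.32, -0.61, -0.25 and -0.12, lowest at 400K (adjusted p = 0.434). PFKFB4, a relative of PFKFB3, had 0.14, 0.54, 0.26, 0.49 and 0.70 (slope 0.14 ± 0.04, adjusted p = 0.0526), whereas PFKFB3 fell.

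Besides VEGFA, the stress genes DDIT4 and STC2 were highest at 400K, and were picked after their values were seen. Other genes of the related and marker lists highest there included LOX, PDP1, EPCAM and EP300, at 0.83, 0.67, 0.78 and 0.17. DDIT4, an inhibitor of mTORC1 signalling, had 0.23, 0.65, 1.23, 0.89 and 0.70. STC2, a secreted stanniocalcin, had -0.26, -0.29, 1.55, 0.22 and -1.28. Of all genes, 8.82% were highest at 400K, and 6.29% of the 3973 genes with a range of 1.5-fold or more. The 400K density has 1 array, so a feature of that dish and of that density cannot be told apart.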
